A study of Mus musculus with 4 samples.

Results

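Cathepsins are proteases of the lysosome, and cystatin C is a secreted protein that blocks the cysteine cathepsins. The 10 transcripts described here are the 9 cathepsin genes Ctsa, Ctsb, Ctsc, Ctsd, Ctsh, Ctsk, Ctsl, Ctss and Ctsz and the cystatin C gene Cst3, chosen by symbol from the 24043 rows of a deposited expression table. Each had 1 row. RNA had been sequenced from tumor cells of female MMTV-PyMT mice, where a promoter active in the mammary gland drives the polyoma middle T oncogene. All mice carried the R26Y allele, a Rosa26 reporter that turns on yellow fluorescent protein (YFP) once Cre has removed a stop cassette. Cre came from an adenovirus injected into the ducts (Ad-K8-Cre), in which the keratin 8 promoter restricts it to luminal cells, and YFP+ cells were sorted 2 to 3 months later. The compared tumors were titled Lsd1 knockout (2 libraries), with Lsd1L/L conditional alleles per the series' design text, and the controls were titled wild-type, Lsd1+/+ (2 libraries). The comparison asks what differs in tumor cells without Lsd1, a histone demethylase encoded by Kdm1a.

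The labels do not name animals, so p-values measure the spread between these libraries, which may be technical. For the knockout samples 1 label, that of the tissue, reads Lsd1+/+ against their title and genotype. Kdm1a itself was at 20.2 and 22.8 FPKM in the labelled-knockout libraries and at 52.5 and 22.9 FPKM in wild-type (difference -0.67, SE 0.46; limma, adjusted p = 0.34), level with the second wild-type library, and a value per gene cannot separate deleted from kept exons. FPKM, the unit inferred for the deposited values, is reads or fragments per length of transcript and per sequenced library. Levels were compared between genes on that reading. Read totals were not given. From the spacing of low values, relative depth was estimated at 0.93 and 1 in the labelled-knockout libraries and at 1.03 and 0.85 in wild-type. The sort was for tumor epithelium, and epithelial markers were present in all libraries, with a summed level over 12 genes of 730.01 and 752.5 FPKM in the labelled-knockout libraries and 12313 and 2756 FPKM in wild-type. Markers of other cells stood beside them. Of 14 lymphocyte markers 13 passed as higher, where 1059 of all 11138 tested genes did. Ncr1, among them, was listed at 0 in both wild-type libraries. The 14 summed to 1926 and 1836 FPKM in the labelled-knockout libraries, against 17.9 and 70.6 FPKM in wild-type. The 9 dendritic cell markers summed to 404 and 378 FPKM in the labelled-knockout libraries, with Ccr7 alone at 379 and 354 FPKM. In wild-type they summed to 10.5 and 49.8 FPKM. Of the 7 tested, 5 differed upward and 2 downward. The 8 neutrophil markers summed to 1166 and 1245 FPKM in the labelled-knockout libraries and to 573 and 627 FPKM in wild-type, with 7 upward and 1 downward. The 16 macrophage markers summed to 2323 and 2236 FPKM in the labelled-knockout libraries, against 1262 FPKM in the first and 32425 FPKM in the second wild-type library. The second wild-type library thus stood apart in macrophage transcripts, though not in these alone. The 7 endothelial markers summed to 23.9 and 24.2 FPKM in the labelled-knockout libraries and to 35.2 and 251 FPKM in wild-type. All 7 of them, and all 8 fibroblast markers, were higher in the second than in the first wild-type library. The difference of each of the 10 transcripts is therefore also given against each wild-type library alone.

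Lysosomal proteases are made as inactive precursors, tagged with mannose 6-phosphate in the Golgi and matured in the acid lysosome. Cathepsins B, C, H, K, L, S and Z are cysteine proteases of the papain family, cathepsin D is an aspartic protease and cathepsin A is a serine carboxypeptidase. Cathepsins A, B, D and L are made in most cells, whereas S, C, H and Z are known for high levels in macrophages and other antigen-presenting cells, and K is known from osteoclasts and fibroblasts. In mouse mammary tumors both the tumor cells and the macrophages around them are known to make cathepsin B.

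Promoter stretches are shown for 3 members because they hold short sequences bound by regulators of lysosomal and of myeloid genes, and because Ctss, Ctsa and Ctsd differed in how they varied between the libraries. They are from RefSeq, build GRCm38.p6, while the expression values were made on mm9, so no coordinate of the expression data is implied. The RefSeq table held windows from 250 bases before to 50 after a transcript start for 8 of the 10 genes. The entries for Ctsb and Ctsh were missing. TCACGTGA is the core of the element through which TFEB and related factors act on lysosomal genes. It holds CACGTG, the wider E-box. Both are palindromes, so the strands are read as 1. In the stretches of Ctsa (chr2:164833673-164833792, + strand, 100 bases before the second of its 2 listed starts and 20 after it) and Ctsd (chr7:142387828-142388077, - strand, 250 bases before the start) the capitals mark these letters. In the stretch of Ctss (chr3:95526686-95526805, + strand, 100 bases before the start and 20 after it) the capitals mark AANNGAAA, a core of sites for interferon regulatory factors, in 3 overlapping copies, and then GAGGAAGT, a site form of the myeloid factor PU.1, read on the other strand.

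Ctsa: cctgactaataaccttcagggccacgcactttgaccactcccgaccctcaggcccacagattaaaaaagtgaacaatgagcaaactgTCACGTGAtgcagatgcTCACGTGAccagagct
Ctsd: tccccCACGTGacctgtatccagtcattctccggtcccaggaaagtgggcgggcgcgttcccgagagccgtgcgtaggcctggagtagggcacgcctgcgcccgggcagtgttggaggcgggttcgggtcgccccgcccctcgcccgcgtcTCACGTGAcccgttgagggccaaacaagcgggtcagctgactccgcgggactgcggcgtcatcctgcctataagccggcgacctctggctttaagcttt
Ctss: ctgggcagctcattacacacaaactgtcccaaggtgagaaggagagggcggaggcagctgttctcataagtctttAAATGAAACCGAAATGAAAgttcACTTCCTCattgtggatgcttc

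Over both strands, TCACGTGA was found in 0.974% of all 32851 promoter windows of 300 bases and in 2 of the 8 genes (Ctsa and Ctsd). CACGTG was in 7.15% of windows and in 3 of the genes (Ctsa, Ctsd and Ctsl). GAGGAAGT was in 3.2% of windows and in 2 of the genes (Ctss and Ctsc), and AANNGAAA was in 23.9% of windows and in 3 of the genes (Ctss, Ctsl and Cst3). These are matches of letters and not measured binding.

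**Figure D1:**
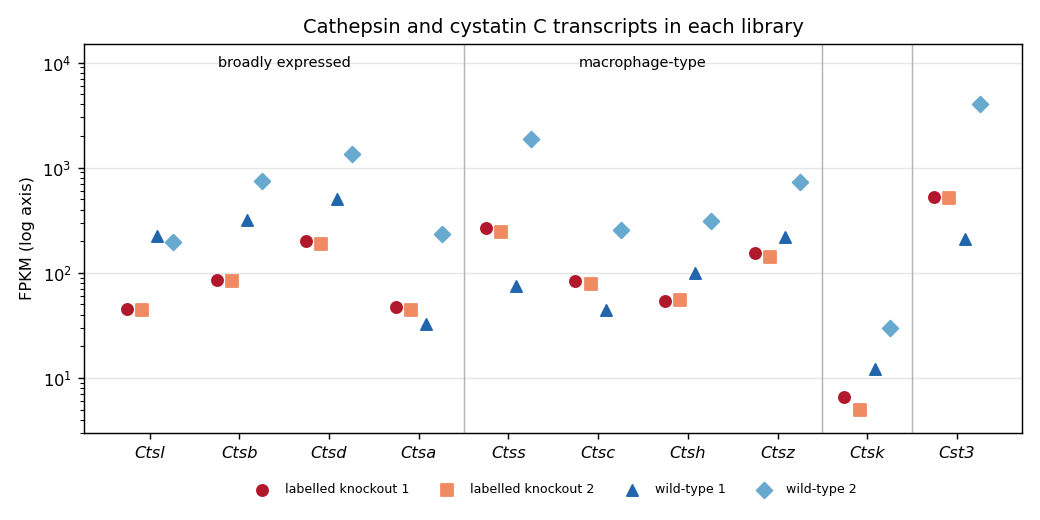
FPKM of each transcript on a log axis (y) by gene (x), with 1 point per library, the labelled-knockout libraries in red and orange and wild-type in dark and light blue. The labelled-knockout libraries lie together for every gene, and Ctsl is the 1 gene at which the wild-type points also lie together.

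Of the broadly expressed cathepsins, Ctsl encodes cathepsin L, an endopeptidase. It was at 45.5 and 44.04 FPKM in the labelled-knockout libraries and at 224 and 196 FPKM in wild-type. Both labelled-knockout libraries were far below both wild-type libraries, and each pair was close. Ctsl fell by 2.20 on the log2(FPKM + 1) scale (SE 0.17, n = 2 and 2; limma, adjusted p = 0.024), to 44.8 ± 1.04 FPKM in the labelled-knockout libraries, against 210 ± 19.7 FPKM in wild-type (SD, n = 2 each). It was the only member for which the second wild-type library did not exceed the first, and the difference was -2.10 against the second and -2.30 against the first wild-type library alone.

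Ctsb encodes cathepsin B, a cysteine protease that cuts both within proteins and at their ends. It was at 84.7 and 84.2 FPKM in the labelled-knockout libraries and at 317 and 755 FPKM in wild-type. Both labelled-knockout libraries lay below both wild-type libraries, which differed 2.38-fold from each other. Ctsb fell by 2.52 on the log2 scale (SE 0.47; limma, adjusted p = 0.044), and the difference was -3.14 against the second and -1.90 against the first wild-type library alone. With a pseudocount of 0.1 it no longer passed (limma, adjusted p = 0.0501).

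Ctsd encodes cathepsin D, the main aspartic protease of the lysosome. It was at 203 and 189.5 FPKM in the labelled-knockout libraries and at 507 and 1355 FPKM in wild-type, again with no overlap. The difference of -2.07 (SE 0.52) did not pass (limma, adjusted p = 0.071), and it was -2.78 against the second and -1.37 against the first wild-type library alone. Ctsa encodes cathepsin A, which protects the sialidase Neu1 and beta-galactosidase in a lysosomal complex. It was at 47.7 and 44.4 FPKM in the labelled-knockout libraries and at 32.6 and 233 FPKM in wild-type, so that the groups overlapped. Its difference of -0.91 (SE 1.02; limma, adjusted p = 0.55) was -2.31 against the second wild-type library alone and 0.49 against the first.

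Both called members were thus broadly expressed cathepsins that were lower in the labelled-knockout libraries, 2 of the 10 transcripts, all of which entered the test, while 8 did not pass. Of all 11138 tested genes 16.5% passed and 6.99% passed and were lower, so that 2 of 10 is near the share passing in either direction and is no result about the members as a set. In 6 of the 10 transcripts both labelled-knockout libraries lay below both wild-type libraries, against 32.1% of tested genes, and in 0 of the 10 they lay above, against 39.3%. All 10 differences were negative, between -2.52 and -0.39 with a median of -1.50, where the median of all tested genes was 0.08. The median of the members was -2.39 leaving out wild-type 1 and -0.71 leaving out wild-type 2. In sorted bulk cells, fewer cells of a type and less RNA per cell cannot be told apart. The lymphocyte markers given above were higher in the same libraries, and their part in these differences was not tested.

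The calls of Ctsl and Ctsb depended on having both labelled-knockout libraries. Leaving out the first of them, 0 members and 0 genes passed (limma; 2 members and 1385 genes at an unadjusted p under 0.05), and leaving out the second, 0 members and 0 genes passed (limma; 2 members and 1346 genes unadjusted). Where a single wild-type library remained, its spread was assumed to be that of the close pair labelled knockout. All 10 members then passed, but so did 69.3% of all genes when wild-type 1 was left out and 71% when wild-type 2 was left out. With no filter on low values neither Ctsl (adjusted p = 0.12) nor Ctsb (adjusted p = 0.18) passed.

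**Figure D2:**
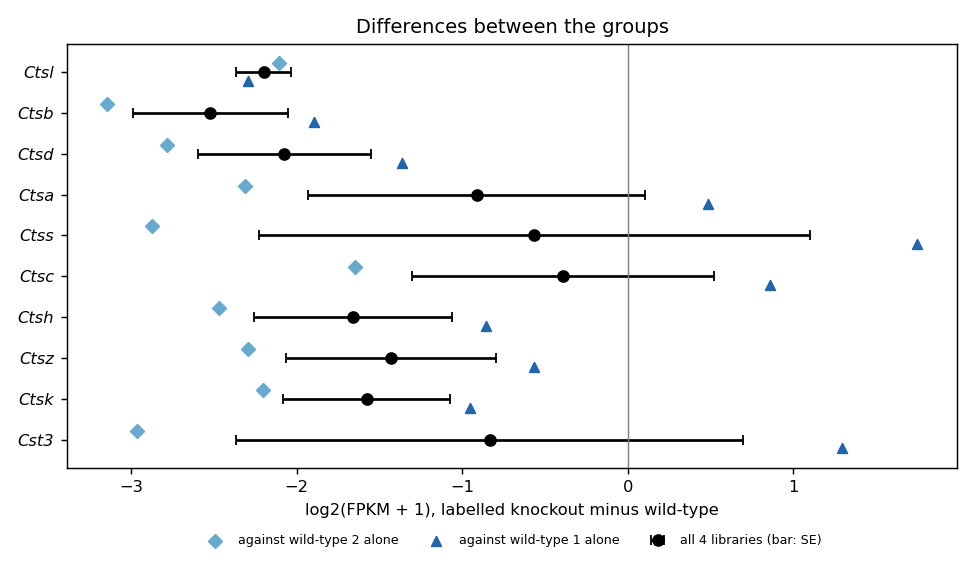
Difference in log2(FPKM + 1), labelled knockout minus wild-type (x), for each transcript (y). Black points use all 4 libraries with bars of 1 SE from limma, and blue points use 1 wild-type library each. For Ctsa, Ctsc, Ctss and Cst3 the sign turns with the wild-type library used, and for Ctsl the points nearly coincide.

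Among the macrophage-type cathepsins, Ctss varied the most between the wild-type libraries. It encodes cathepsin S, which trims the invariant chain from MHC class II molecules. It was at 265 and 246 FPKM in the labelled-knockout libraries and at 75.3 and 1881 FPKM in wild-type. The labelled-knockout libraries therefore lay between the wild-type libraries, 3.39-fold above the first (mean of both) while the second was 7.36-fold above them. The difference over all libraries was -0.56 (SE 1.66; limma, adjusted p = 0.83), and it was -2.88 against the second and 1.75 against the first wild-type library alone. Of all tested genes 0.467% had a larger difference between the second and the first wild-type library than Ctss.

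Ctsc encodes cathepsin C, the dipeptidyl peptidase that activates granule serine proteases of blood cells. It was at 82.8 and 78.9 FPKM in the labelled-knockout libraries and at 44.01 and 255 FPKM in wild-type, and so also lay between them (-0.39, SE 0.91; limma, adjusted p = 0.77; -1.65 against the second wild-type library alone and 0.86 against the first).

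Ctsh and Ctsz followed another order. Ctsh, the gene of the aminopeptidase cathepsin H, was at 54.2 and 55.7 FPKM in the labelled-knockout libraries and at 100.1 and 308 FPKM in wild-type. Ctsz, the gene of the carboxypeptidase cathepsin Z, was at 156 and 141 FPKM in the labelled-knockout libraries and at 220.1 and 732 FPKM in wild-type. Neither had overlapping groups, and neither passed (Ctsh -1.66, SE 0.60, adjusted p = 0.13; Ctsz -1.43, SE 0.64, adjusted p = 0.18; limma). Against the second wild-type library alone the difference was -2.47 for Ctsh and -2.29 for Ctsz, and against the first it was -0.85 for Ctsh and -0.56 for Ctsz. Ctsk, the gene of the collagen-degrading cathepsin K, was the lowest of the 10 transcripts in all 4 libraries. It was at 6.63 and 5.01 FPKM in the labelled-knockout libraries and at 12.1 and 30.2 FPKM in wild-type (-1.58, SE 0.50; limma, adjusted p = 0.11; -2.20 against the second wild-type library alone and -0.95 against the first). Fibroblast markers (8 genes) summed to 193 and 192 FPKM in the labelled-knockout libraries and to 225 and 563 FPKM in wild-type. The 6 osteoclast markers summed to 76.6 and 80.4 FPKM in the labelled-knockout libraries and to 47.3 and 277 FPKM in wild-type. Calcr and Oscar among them were listed at 0 in every library, whereas Acp5 was at 66.3 and 72.1 FPKM in the labelled-knockout libraries and at 43.4 and 194.5 FPKM in wild-type, and Dcstamp was at 6.34 and 4.42 FPKM in the labelled-knockout libraries and at 2.33 and 78.3 FPKM in wild-type. Mmp9 went the other way, at 3.07 and 2.62 FPKM in the labelled-knockout libraries and at 0.75 and 1.66 FPKM in wild-type. Ocstamp was at 0.955 and 1.26 FPKM in the labelled-knockout libraries and at 0.755 and 2.53 FPKM in wild-type. Acp5 held most of the sum in each library. The part of fibroblasts and osteoclasts in the level of Ctsk was not tested.

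The inhibitor gene Cst3 was the highest of the 10 in both labelled-knockout libraries. It was at 525 and 510.1 FPKM there and at 210.1 and 4046 FPKM in wild-type, with the labelled-knockout libraries again in between. The difference was -0.83 (SE 1.53; limma, adjusted p = 0.72), and it was -2.96 against the second and 1.30 against the first wild-type library alone. Relative to the summed FPKM of the 7 cysteine cathepsins, Cst3 stood at a ratio of 0.76 and 0.78 in the labelled-knockout libraries and at 0.21 and 0.97 in wild-type. By this measure the first wild-type library had the least Cst3 transcript for its cysteine cathepsin transcripts. The measure leaves out other inhibitors, among them Cstb (described below), which was highest in that library, at 869 FPKM.

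The macrophage-type and the broad class were set against each other within each library, as mean log2(FPKM + 1) over 4 genes each. The macrophage-type mean minus the broad mean was 0.57 and 0.57 in the labelled-knockout libraries and -0.997 and 0.30 in wild-type. Broad cathepsins thus led in the first wild-type library, and macrophage-type cathepsins led in the other 3. The difference of the group means was 0.92 (replicate SD 0.65) and was not tested, since the members were chosen with earlier results known. It was 0.27 leaving out wild-type 1 and 1.57 leaving out wild-type 2. The classes did not behave as blocks: Ctsa, placed among the broad genes, lay between the wild-type libraries like Ctss and Ctsc, and Ctsh and Ctsz lay below both like Ctsb and Ctsd.

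**Figure D3:**
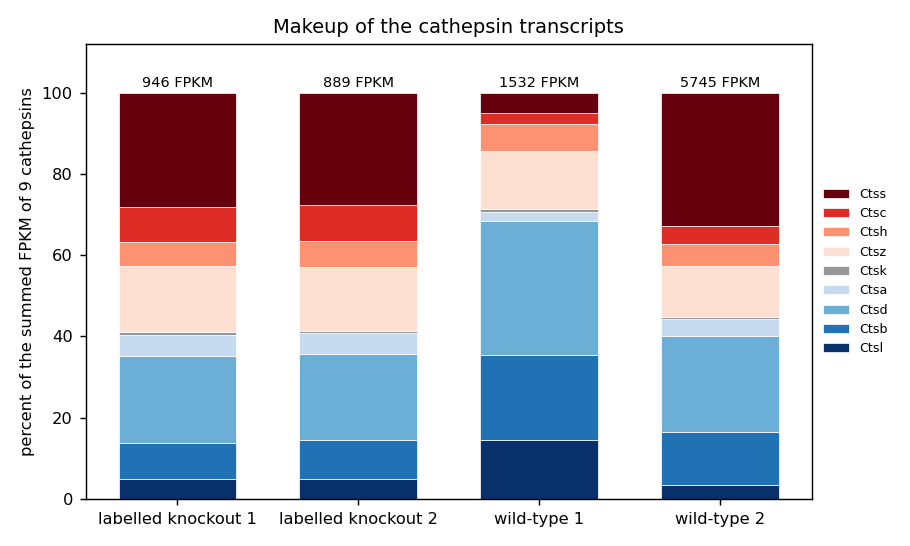
Percent of the summed FPKM of the 9 cathepsins (y) held by each gene in each library (x), blue for broadly expressed, grey for Ctsk and red for macrophage-type, with the sum above each bar. Ctss holds between 27.7 and 32.7% in 3 libraries and 4.92% in the first wild-type library.

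The classes were also described by their share of all cathepsin transcripts. The 9 genes summed to 946 and 889 FPKM in the labelled-knockout libraries and to 1532 and 5745 FPKM in wild-type. Macrophage-type genes held 59.02 and 58.7% of this sum in the labelled-knockout libraries and 28.7 and 55.3% in wild-type. Ctsb held 8.96 and 9.47% in the labelled-knockout libraries, against 20.7 and 13.1% in wild-type, and Ctsl held 4.81 and 4.95% in the labelled-knockout libraries, against 14.6 and 3.41% in wild-type. In makeup the labelled-knockout libraries were close to the second wild-type library, while in sum they were below both.

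**Figure D4:**
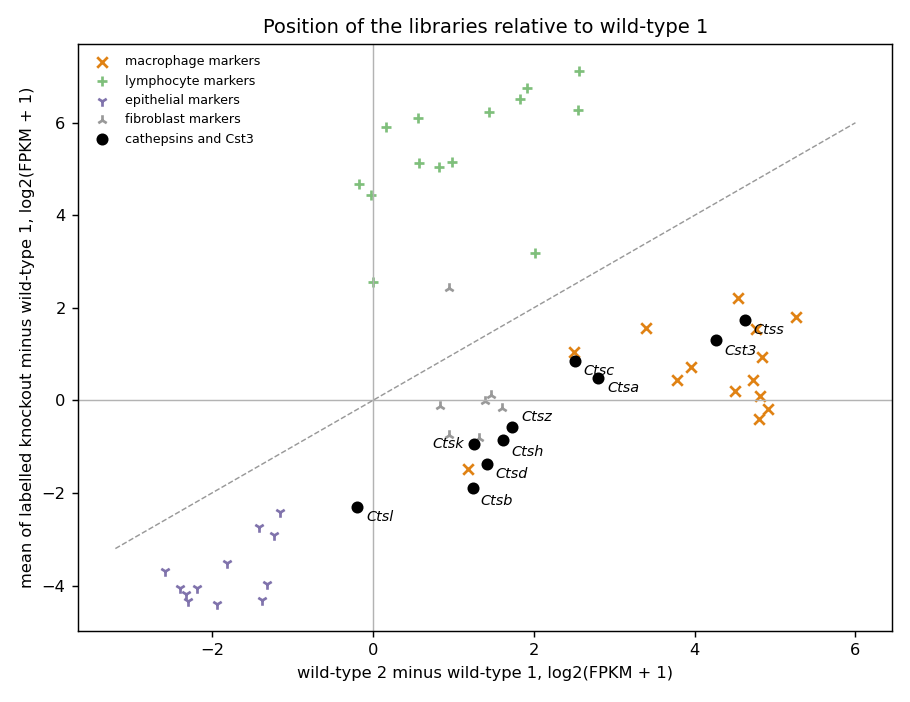
Each gene by its difference between the second and first wild-type library (x) and between the mean of the labelled-knockout libraries and the first wild-type library (y), in log2(FPKM + 1), for the members (black) and tested marker genes. The dashed line marks equal differences. Ctss and Cst3 lie among the macrophage markers, with Ctsc and Ctsa at their lower end, Ctsh, Ctsz, Ctsk, Ctsd and Ctsb lie nearer the fibroblast markers, and Ctsl lies between those and the epithelial markers.

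Marker levels were then set beside the members. All 16 macrophage markers were higher in the second than in the first wild-type library, by a median of 27.4-fold, and 9 of the 10 members were too, against 47.8% of all tested genes, by up to 25.0-fold for Ctss and 19.3-fold for Cst3. None of the 14 tested macrophage markers passed, against 16.5% of all tested genes. Their median difference was -1.46, which was -3.39 leaving out wild-type 1 and 0.58 leaving out wild-type 2. The ratio of a member to Csf1r, the receptor gene of the macrophage growth factor CSF1, was computed as a description after the levels had been seen. Ctss to Csf1r was 17.2 and 15.1 in the labelled-knockout libraries and 15.7 and 12.01 in wild-type. Cst3 to Csf1r was 34.1 and 31.4 in the labelled-knockout libraries and 43.7 and 25.8 in wild-type. The ratios of Ctss and Cst3 overlapped between the groups and varied less than their levels, whereas Ctsl to Csf1r was 2.96 and 2.71 in the labelled-knockout libraries and 46.5 and 1.25 in wild-type. The choice of marker matters. As a percent of the 16 summed macrophage markers, Ctss was 11.4 and 11.0% in the labelled-knockout libraries and 5.97 and 5.80% in wild-type. Cst3 was 22.6 and 22.8% in the labelled-knockout libraries and 16.6 and 12.5% in wild-type. For both Ctss and Cst3 the groups were thus apart by this measure.

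**Figure D5:**
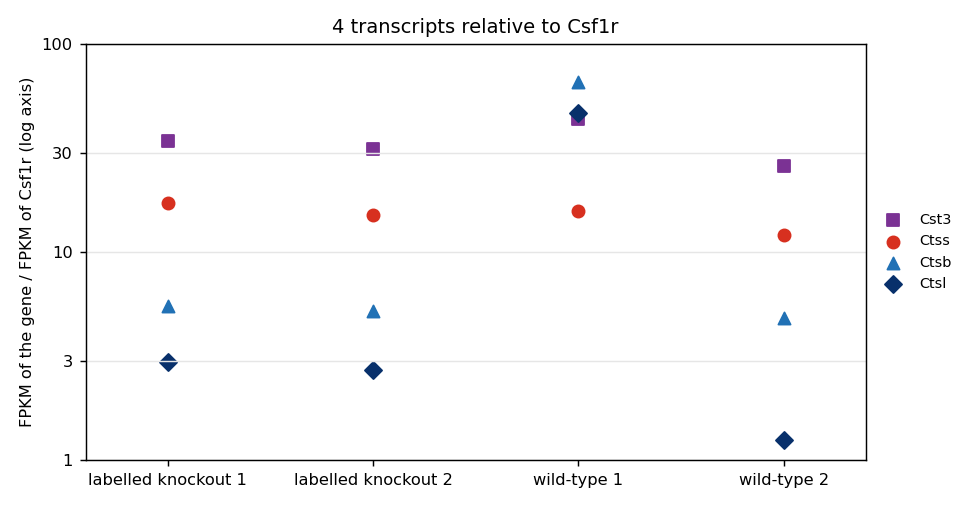
FPKM of Cst3, Ctss, Ctsb and Ctsl divided by the FPKM of Csf1r (y, log axis) in each library (x), 1 point per gene and library. Ctss stays between 12.01 and 17.2, whereas Ctsb and Ctsl stand higher in the first wild-type library than in the other 3.

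All 12 epithelial markers were lower in both labelled-knockout libraries than in both wild-type libraries, against 32.1% of all tested genes (median difference -2.91). Cldn3 and Spint1 passed, where 6.99% of all tested genes passed as lower. Set against the luminal keratin gene Krt8, Ctsl was at a ratio of 0.18 and 0.17 in the labelled-knockout libraries and 0.048 and 0.21 in wild-type. Per unit of Krt8 the labelled-knockout libraries thus lay between the wild-type libraries, unlike the level of Ctsl itself. Ctsb to Krt8 was 0.33 and 0.32 in the labelled-knockout libraries and 0.068 and 0.81 in wild-type, and also lay between. The part of cell makeup in the lower Ctsl and Ctsb was not tested beyond these ratios.

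The members differed from each other in shape over the 4 libraries. As a measure of likeness, each gene's log2(FPKM + 1) values were centred on their mean and the Euclidean distance between genes was taken, in log2 units. Among member pairs Ctsh and Ctsz were closest (0.27), then Ctss and Cst3 (0.38), and Ctsl and Ctss were farthest apart (3.78). Over 4589 genes with a mean of at least 10 FPKM, the genes nearest to Ctss were Fcgr3 (0.24), an Fc receptor of myeloid and NK cells, Gatm (0.29) and Ly6c1 (0.32). Those nearest to Cst3 were Apobec1 (0.16), Gatm (0.32) and Csf1r (0.36). Those nearest to Ctsc were Cd14 (0.20), a monocyte receptor for lipopolysaccharide, Dpp7 (0.28) and Acp5 (0.29).

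The nearest genes of the other members were of different kinds. Ctsl lay nearest to the stress-induced transcription factor gene Atf3 (0.081), the amyloid precursor gene App (0.13) and Tinagl1 (0.15). Ctsb lay nearest to the basement membrane collagen gene Col18a1 (0.16), Pdgfa (0.23) and Cbr2 (0.29). Ctsd lay nearest to Hebp1 (0.11), Tmem176b (0.13) and Cmtm3 (0.19). Psap, the gene of prosaposin, which lysosomal proteases cut into saposins, was among the 3 nearest of both Ctsh (0.14) and Ctsz (0.18). Ctsk lay nearest to Uap1l1 (0.10), the gelatinase gene Mmp2 (0.15) and Serpinf1 (0.18). Ctsh also lay near Gna12 (0.14) and Plod1 (0.21), and Ctsz near Marcks (0.098) and Mfap5 (0.21). Ctsa lay nearest to Gpr137b-ps (0.17), Creg1 (0.28) and Ntpcr (0.36). Over 4 libraries these distances are a description.

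Other lysosomal proteases were examined as a list of 12 measured genes, of which 10 were tested. Ctsw rose, 0 fell and 9 did not pass, with a median difference of -0.33 (-1.21 leaving out wild-type 1 and 0.92 leaving out wild-type 2). The counts of this and the next 3 lists stand beside the 16.5% of all tested genes that passed and the 6.99% that passed as lower, and their medians beside 0.08 for all tested genes. Ctsw, the gene of cathepsin W of cytotoxic lymphocytes, was at 199 and 196 FPKM in the labelled-knockout libraries and at 2.69 and 11.1 FPKM in wild-type (4.89, SE 0.64; limma, adjusted p = 0.031). It was thus above Ctsl in the labelled-knockout libraries and far below it in wild-type, and the lymphocyte markers were high in the same libraries, whose part in it was not tested. Ctse, the gene of the aspartic protease cathepsin E, was at 57.0 and 51.3 FPKM in the labelled-knockout libraries and at 2.25 and 12.3 FPKM in wild-type (3.07, SE 0.75; adjusted p = 0.068). Napsa, the gene of the related napsin A, was at 58.5 and 49.8 FPKM in the labelled-knockout libraries and at 0.831 and 17.3 FPKM in wild-type (3.25, SE 1.21; adjusted p = 0.14; 1.59 against the second wild-type library alone and 4.91 against the first). Tpp1, the gene of the lysosomal tripeptidyl peptidase, was at 14.2 and 12.7 FPKM in the labelled-knockout libraries and at 15.7 and 39.2 FPKM in wild-type (-0.85, SE 0.49; adjusted p = 0.27; -1.48 against the second wild-type library alone and -0.21 against the first).

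Among 21 measured genes of other cystatins and serpins, 13 were tested, of which 1 rose, 3 fell and 9 did not pass (median difference 0.69, which was 1.31 leaving out wild-type 1 and 0.034 leaving out wild-type 2). Cstb encodes cystatin B (stefin B), the inhibitor of cysteine cathepsins inside cells. It was at 215 and 240 FPKM in the labelled-knockout libraries and at 869 and 756 FPKM in wild-type, and fell by 1.83 (SE 0.16; limma, adjusted p = 0.024). Cstb to Ctsl stood at a ratio of 4.71 and 5.45 in the labelled-knockout libraries and 3.88 and 3.86 in wild-type. Serpinb6a was at 17.5 and 15.2 FPKM in the labelled-knockout libraries and at 50.2 and 61.5 FPKM in wild-type and fell by 1.71 (SE 0.21; adjusted p = 0.029), while its paralog Serpinb6b was at 18.4 and 16.7 FPKM in the labelled-knockout libraries and at 2.15 and 2.54 FPKM in wild-type and rose by 2.47 (SE 0.22; adjusted p = 0.024). The stefin gene Stfa2 was low, at 0.483 and 0.448 FPKM in the labelled-knockout libraries and at 2.10 and 3.06 FPKM in wild-type, and passed as lower (adjusted p = 0.040). Stefin A and serpin B6 genes have near copies, so their reads may be split between them.

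Genes that sort enzymes to the lysosome or control its formation followed. Of 15 measured genes 14 were tested, of which 0 rose, Lamp2 fell and 13 did not pass, with a median difference of -0.16 (-0.39 leaving out wild-type 1 and -0.12 leaving out wild-type 2). Lamp2 encodes a membrane protein of the lysosome. It was at 46.4 and 46.2 FPKM in the labelled-knockout libraries and at 138 and 139.9 FPKM in wild-type (-1.56, SE 0.16; limma, adjusted p = 0.024), with each pair close as for Ctsl. Lamp1, a second such membrane protein, was at 102.3 and 92.6 FPKM in the labelled-knockout libraries and at 173 and 384 FPKM in wild-type (-1.40, SE 0.44; adjusted p = 0.10). The sorting receptor gene M6pr was at 63.5 and 69.5 FPKM in the labelled-knockout libraries and at 65.9 and 81.7 FPKM in wild-type. Tfeb, the gene of a transcription factor of lysosomal genes, was at 13.5 and 12.5 FPKM in the labelled-knockout libraries and at 8.27 and 11.6 FPKM in wild-type, and its relative Tfe3 was at 8.60 and 8.25 FPKM in the labelled-knockout libraries and at 12.4 and 16.4 FPKM in wild-type (-0.70, SE 0.23; adjusted p = 0.11). The sorting receptor gene Sort1 was low and differed by -0.98 (SE 0.30; adjusted p = 0.098). M6pr and Tfeb were named after their values had been seen.

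Of 12 genes of proteins that cathepsins cut or join, 9 were tested, of which 2 rose and 7 did not pass (median difference -0.75, which was -1.20 leaving out wild-type 1 and -0.20 leaving out wild-type 2). Both that rose were granzymes, which cathepsin C activates. Gzmb was at 78.3 and 67.7 FPKM in the labelled-knockout libraries and at 0.655 and 4.22 FPKM in wild-type (4.65, SE 0.63; limma, adjusted p = 0.032), and Gzma rose by 3.94 (SE 0.56; adjusted p = 0.033). Cd74, the gene of the invariant chain that cathepsin S cuts, was at 4900 and 4057 FPKM in the labelled-knockout libraries and at 431 and 10256 FPKM in wild-type, and so lay between the wild-type libraries as Ctss did (named after its values had been seen). Grn, the gene of progranulin, was at 29.99 and 30.7 FPKM in the labelled-knockout libraries and at 71.9 and 275 FPKM in wild-type (-2.18, SE 0.71; adjusted p = 0.11), and Glb1, whose enzyme joins cathepsin A, differed by -1.36 (SE 0.41; adjusted p = 0.097). Neu1, whose enzyme is in the same complex, went the other way (named after its values had been seen). It was at 26.3 and 27.7 FPKM in the labelled-knockout libraries and at 12.0 and 19.4 FPKM in wild-type. Its difference was 0.78 (SE 0.29, limma, adjusted p = 0.14). Each call in these 4 lists ended without either labelled-knockout library and with no filter on low values. The replicate block, which left 4.5% of all genes called, kept Ctsl and Ctsb but ended the calls of Serpinb6a (adjusted p = 0.056), Lamp2 (adjusted p = 0.051) and Stfa2 (adjusted p = 0.068), and a pseudocount of 0.1 ended that of Gzma (adjusted p = 0.081).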

How the data were processed

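Sorted tumor cells were profiled by RNA-seq with a low-input Clontech SMARTer kit, per the labels' protocols, and the build was mm9, per the submitters' processing notes. Names of an aligner, a counter and an annotation were not given in the sources used here. Deposited by the authors was 1 FPKM value per gene and library; the unit was inferred from the values, whose totals differ between libraries. Groups follow the titles.

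The 92 spike-in rows, all at 0, were left out. The 27 rows named as dates stayed in the table and are not named. Genes at 1 FPKM or more in 2 or more libraries (11138) entered limma 3.58.1 (R 4.3.3), fitted to log2(FPKM + 1) with genotype as the term, a trended, robust prior and Benjamini-Hochberg adjustment over all tested genes (threshold 0.05). The fit was tested on simulated data. Differences near the pseudocount of 1 are understated. A permutation of 2 against 2 libraries cannot reach the threshold. Relative depth came from whole-number ratios (up to 6, tolerance 0.2%) between libraries among values under 0.1 FPKM. No count model was fitted.

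The members and lists were chosen with earlier results of these data known. Besides the members and Kdm1a, the text names the called genes and up to 4 of lowest p in each pathway list, and the 3 genes nearest in shape to each member (predicted genes left out). Marker lists are given by sums and counts, and some of their genes are also named singly. Csf1r and Krt8 are among these, as denominators of ratios. Alternatives were other pseudocounts, filters, scalings and priors, a replicate block, and leaving out each library.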

Additional observations from a re-analysis of the deposited data

How the results depend on the processing

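Leaving out 1 library at a time, the number of genes past the threshold ranged from 0 to 7912 and that of members from 0 to 10. The log2 differences then ranged from -2.31 to 0.49 for Ctsa, -3.14 to -1.90 for Ctsb, -2.78 to -1.37 for Ctsd, -2.30 to -2.10 for Ctsl, -2.88 to 1.75 for Ctss, -1.65 to 0.86 for Ctsc, -2.47 to -0.85 for Ctsh, -2.29 to -0.56 for Ctsz, -2.20 to -0.95 for Ctsk and -2.96 to 1.30 for Cst3. The positive values, of Ctsa, Ctss, Ctsc and Cst3, came without the second wild-type library. A pseudocount of 0.1 left 1 member called, with Ctsb at -2.53 and no longer past the threshold. With no filter on low values 1 gene and 0 members passed (limma; 4462 genes and 3 members at an unadjusted p under 0.05), with Ctsb at -2.52 and Ctsl at -2.20 as before. The cause was not tested. Median centring, quantile normalization, rescaling to a common total, a plain prior and a filter at 5 FPKM kept both calls and turned no member's direction. The replicate block called 501 genes in place of 1837, Ctsl (adjusted p = 0.043) and Ctsb (adjusted p = 0.049) among them. Same-numbered libraries did not deviate together (correlation across genes -0.062), so the numbers are not shown to pair them. Other definitions of the classes gave 0.96 (Ctsz counted as broad), 1.36 (Ctss alone) and 1.52 (medians) for the macrophage-type minus broad difference. Leaving out 1 library at a time or changing another setting, the median difference ranged from -1.21 to 0.92 for the other lysosomal proteases, 0.034 to 1.31 for the other inhibitors, -0.39 to -0.096 for the sorting genes and -1.20 to 0.012 for the partners and substrates. The median difference of the other inhibitors was 1.17 with a pseudocount of 0.1, 1.22 with a filter at 5 FPKM, and that of the partners and substrates was 0.012 with a filter at 5 FPKM. Read totals are not known, so no counting interval can be given, and 2 libraries a group limit the precision.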

Other observations

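The placental cathepsins, a rodent gene cluster beside Ctsl, were nearly absent. Of 9 measured genes 7 were listed at 0 in all 4 libraries and none passed the filter on low values. The exceptions were Ctsj and Ctsr, both highest in the first wild-type library. Ctsj was listed at 0 in both labelled-knockout libraries and in the second wild-type library and was at 10.8 FPKM in the first wild-type library. Ctsr had 0.037 FPKM in the first labelled-knockout library and 0 in the second, and was at 3.31 and 0.0404 FPKM in wild-type. Both were named after their values had been seen.

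Ctsk and Ctss are neighbours on mouse chromosome 3, with RefSeq starts 27576 bases apart in GRCm38.p6. Ctss differed 25.0-fold between the second and the first wild-type library and Ctsk 2.50-fold, and the labelled-knockout libraries lay between these for Ctss and below both for Ctsk.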
